A study of Rattus norvegicus with 12 samples.

Results

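The 10 genes described here are Isg15, Usp18, Mx1, Mx2, Oas1a, Rtp4, Herc6, Irf7, Ifi44l and Ifi27l2b, antiviral genes that type I interferon induces, measured in the livers of 12 rats. They were taken by name, as 10 of the 14217 genes named on the array, and every probe set with a single gene symbol was kept for them, 11 of 20826; Mx2 has 2 probe sets and each other gene has 1. The genes were chosen on these measured values, with results of the same livers known, including a low median of interferon genes with maple syrup and 1 liver with a high interferon level. The values of the 10 genes are therefore given as a description, with no test.

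Total RNA of whole liver from male Wistar rats, labelled as 5 weeks old, was hybridised to Affymetrix arrays, 1 rat per array. In 6 rats the purified AIN93G diet held 20% maple syrup, and in 6 it held 20% of a sugar mix syrup, whose sugars were set to resemble those of maple syrup. All rats first had the basal diet for 4 days, ate their syrup diet for 11 days and were fasted for 16 hours before the liver was taken; 7 rats ate maple syrup and 8 ate the sugar mix, and those beyond 6 per diet were not analysed here. Every group thus received a sugar-rich diet, no rat on the basal diet alone was analysed here, and no infection or interferon treatment is named in the labels. Hepatocyte markers marked the tissue as liver: Alb, the gene of serum albumin, stood at the top of the table with a mean of 15.21, and 11 of 12 measured hepatocyte markers lay at or above the 99.3rd percentile of level, the exception being Tat at the 94.8th.

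Type I interferons bind the receptor formed by Ifnar1 and Ifnar2, and the kinases Jak1 and Tyk2 then pass the signal on. A complex that contains Stat2 and Irf9 then binds a short DNA element, the interferon-stimulated response element, in front of its target genes. The targets include enzymes and GTPases that block virus replication and feedback factors that tune the response, and both hepatocytes and the immune cells of the liver can respond. In whole liver, a change in the number of cells of a type and a change of RNA per cell cannot be told apart.

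Promoters are shown first because the complex acts through an element in front of its target genes. Of the 10 genes, 5 had a promoter entry in the RefSeq table of build GRCr8, which holds 250 bases before and 50 after a gene start: Mx1, Oas1a, Herc6, Irf7 and Ifi44l. The core searched was GAAANNGAAA, in both orientations, and its matches are in capitals below. Isg15, Usp18, Mx2, Rtp4 and Ifi27l2b had no entry.
Oas1a, chr12:41330216-41330515, strand +: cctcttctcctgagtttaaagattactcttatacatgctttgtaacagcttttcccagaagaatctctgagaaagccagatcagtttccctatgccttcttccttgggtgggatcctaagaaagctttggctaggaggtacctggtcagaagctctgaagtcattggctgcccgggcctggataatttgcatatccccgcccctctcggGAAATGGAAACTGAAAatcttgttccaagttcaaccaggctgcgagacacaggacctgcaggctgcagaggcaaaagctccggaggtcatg
Ifi44l, chr2:243328473-243328772, strand +: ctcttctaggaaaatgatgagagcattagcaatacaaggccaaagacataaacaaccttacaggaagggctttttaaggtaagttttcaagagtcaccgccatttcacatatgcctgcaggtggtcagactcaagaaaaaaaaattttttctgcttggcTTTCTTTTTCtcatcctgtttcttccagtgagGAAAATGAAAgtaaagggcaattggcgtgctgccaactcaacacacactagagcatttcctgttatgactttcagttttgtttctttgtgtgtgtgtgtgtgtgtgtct
Irf7, chr1:205799974-205800273, strand -: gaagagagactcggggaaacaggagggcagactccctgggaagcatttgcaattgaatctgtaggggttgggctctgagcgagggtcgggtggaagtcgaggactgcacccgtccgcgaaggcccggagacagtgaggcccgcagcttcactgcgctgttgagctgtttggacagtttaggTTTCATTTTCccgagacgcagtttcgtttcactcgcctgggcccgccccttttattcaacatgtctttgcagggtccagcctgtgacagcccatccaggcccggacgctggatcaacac
Oas1a held 2 overlapping matches, at bases -41 to -32 and -35 to -26 from the start, which together read as a single run of capitals. In Ifi44l the 2 matches lay at -91 to -82 and -59 to -50, the farther of them in the reverse orientation. Irf7 had 1 match, in the reverse orientation, at -69 to -60. No match to these letters was in the windows of Mx1 and Herc6. The core was thus in 3 of 5 promoters, against 3.92% of all 33469 promoters in the table. The letters TTCNNNGAA, a motif known from genes that respond to type II interferon, were in 2 of 5, Oas1a and Ifi44l, against 8.87% of all. Matches to the first core overlapped no match to the second.

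The deposited values are scores on which levels resemble log2 intensities, while differences between livers are much smaller than log2 intensities give. The median probe set had a standard deviation of 7.13e-06 over the 12 arrays, and the array medians lay between 7.36619 and 7.36632. A difference in score is therefore no fold change, and sizes are given as z, the distance from the gene's own mean over the 12 livers in its standard deviations, or as g (Hedges), which is the maple syrup mean minus that of the sugar mix, divided by the pooled standard deviation between animals. The 10 genes were among the widest of the table: all 11 probe sets lay between the 99.0th and 99.97th percentile of standard deviation. How far the unequal scale between probe sets adds to that place was not tested. The array medians differed by more than the SD of the median probe set. Values given below after median centring therefore carry the offset of the array at a size above most genes' own spread. Quantile normalization gave no g for Jak1, Irf3 and Cp. Whether changes under it came from the gene or from the scaling was not tested.

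The livers of a diet differed widely in these genes, and the 2 diets overlapped in every one of them. In sugar mix replicate 2 all 10 genes had their highest value of the 12 livers, at 1.65 to 2.70 standard deviations above their means. Sugar mix replicate 1 had the lowest value in 9 of 10 genes, all but Usp18. Over the array, the highest liver was sugar mix replicate 2 in 10.3% of genes and the lowest was sugar mix replicate 1 in 7.41%. Both ends of the range thus came from the same diet, and in 9 of 10 genes all 6 maple syrup livers lay inside the range of the sugar mix livers, where 22.6% of all genes did.

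**Figure D1:**
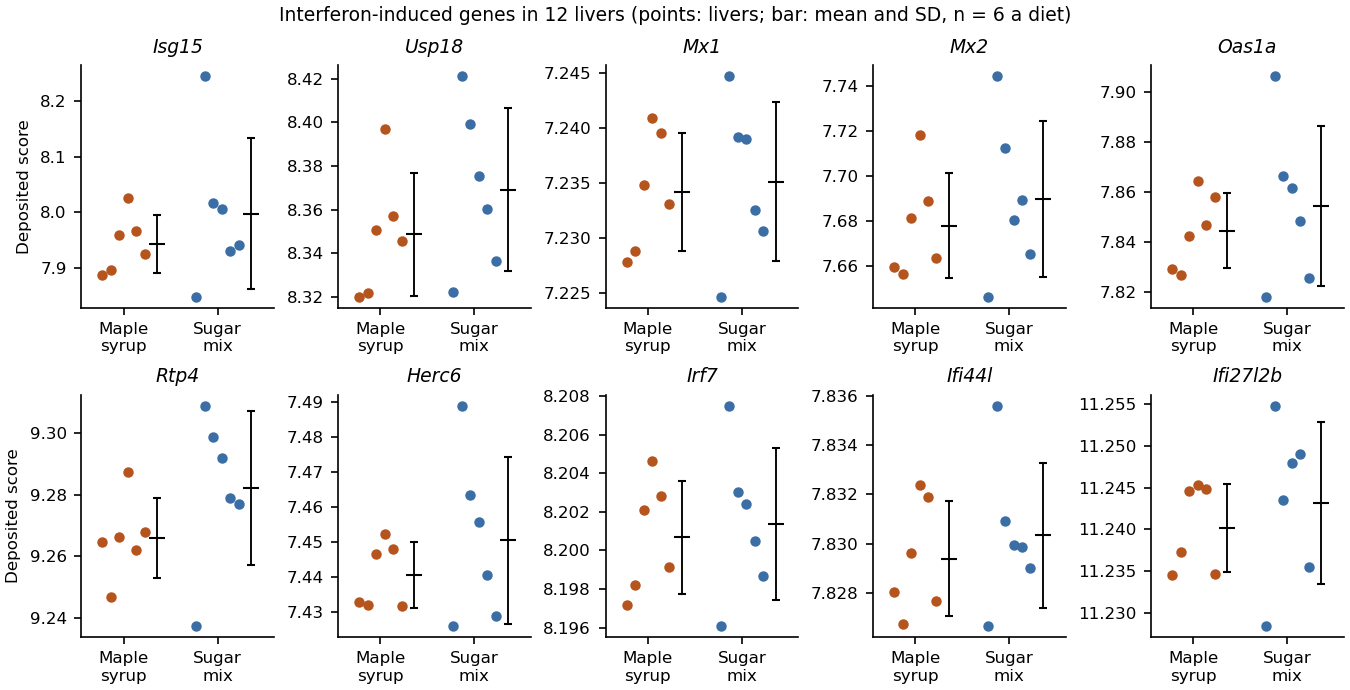
Deposited score of each of the 10 interferon-induced genes in the 12 livers, maple syrup left and sugar mix right; points are livers in replicate order and bars are the mean and SD of 6 livers. Each panel has its own axis, and the top point of every panel is sugar mix replicate 2.

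Among the modifiers, Isg15 encodes a ubiquitin-like protein that is attached to other proteins during the response. Its score was lowest at 7.89, 7.94 at the median and highest at 8.03 in maple syrup livers, and 7.85, 7.97 and 8.24 in sugar mix livers. The value of 8.24 belonged to sugar mix replicate 2 and stood 0.220 above the next liver, maple syrup replicate 4, which is more than the SD of 0.0516 (n = 6) among maple syrup livers. Without that liver the SD of Isg15 over the rest was 0.0561, against 0.102 with it. Usp18 encodes the protease that removes Isg15 from proteins and that also restrains signalling at the interferon receptor. Its scores ran from 8.320 over a median of 8.348 to 8.397 in maple syrup livers, and from 8.322 over 8.368 to 8.421 in sugar mix livers. The lowest Usp18 value was that of maple syrup replicate 1. Herc6 encodes a ligase that attaches Isg15 to proteins in mouse. It had 7.432, 7.440 and 7.452 as lowest, median and highest score in maple syrup livers, against 7.426, 7.448 and 7.489 in sugar mix livers. The highest maple syrup liver for Herc6 was passed by 3 sugar mix livers, replicates 2, 3 and 4.

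The direct antiviral effectors showed the same 2 livers at the ends. Mx1 and Mx2 encode dynamin-like GTPases that block virus replication. For Mx1 the lowest, median and highest scores were 7.228, 7.234 and 7.241 in maple syrup livers, and 7.225, 7.236 and 7.245 in sugar mix livers. The brighter probe set of Mx2 had 7.657, 7.673 and 7.718 in maple syrup livers, and 7.646, 7.685 and 7.745 in sugar mix livers. Both genes had maple syrup replicate 4 as the second highest liver. Oas1a encodes an oligoadenylate synthetase, which senses double-stranded RNA and activates RNase L. Its scores were 7.827, 7.845 and 7.864 in maple syrup livers, against 7.818, 7.855 and 7.906 in sugar mix livers. The gap between the top liver and the next was 0.0398 for Oas1a, a share of 0.453 of its whole range. Rtp4, a receptor chaperone that is itself induced by interferon, had 9.247, 9.265 and 9.287 in maple syrup livers, against 9.238, 9.285 and 9.309 in sugar mix livers. For Rtp4 the median of the sugar mix livers was close to the highest maple syrup liver.

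The dimmer probe set of Mx2 did not follow the brighter one. Its scores fell into 2 separate sets, 7 livers between 6.228 and 6.233 and 5 livers between 6.273 and 6.304. The upper set held 2 maple syrup and 3 sugar mix livers, among them sugar mix replicates 5 and 2 as the highest. Over the 12 livers the correlation of the 2 probe sets was r = 0.25 (Spearman rho = 0.24), and the dimmer one correlated with the mean z of the 10 genes at r = 0.35. It was left out of the scores below, which use the brightest probe set of a gene.

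Irf7 is the transcription factor that switches on type I interferon genes and so amplifies the response. Its lowest, median and highest scores were 8.197, 8.201 and 8.205 in maple syrup livers, against 8.196, 8.201 and 8.208 in sugar mix livers, which overlap almost fully. Ifi44l and Ifi27l2b are interferon-induced genes of less settled function. Ifi44l had 7.827, 7.829 and 7.832 in maple syrup livers, and 7.827, 7.830 and 7.836 in sugar mix livers. Ifi27l2b, a small hydrophobic protein of the Isg12 family, had 11.2345, 11.2409 and 11.2453 in maple syrup livers, against 11.2285, 11.2457 and 11.2548 in sugar mix livers. Its second highest liver was sugar mix replicate 5, a liver in which 4 of the 10 genes were above their own mean.

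**Figure D2:**
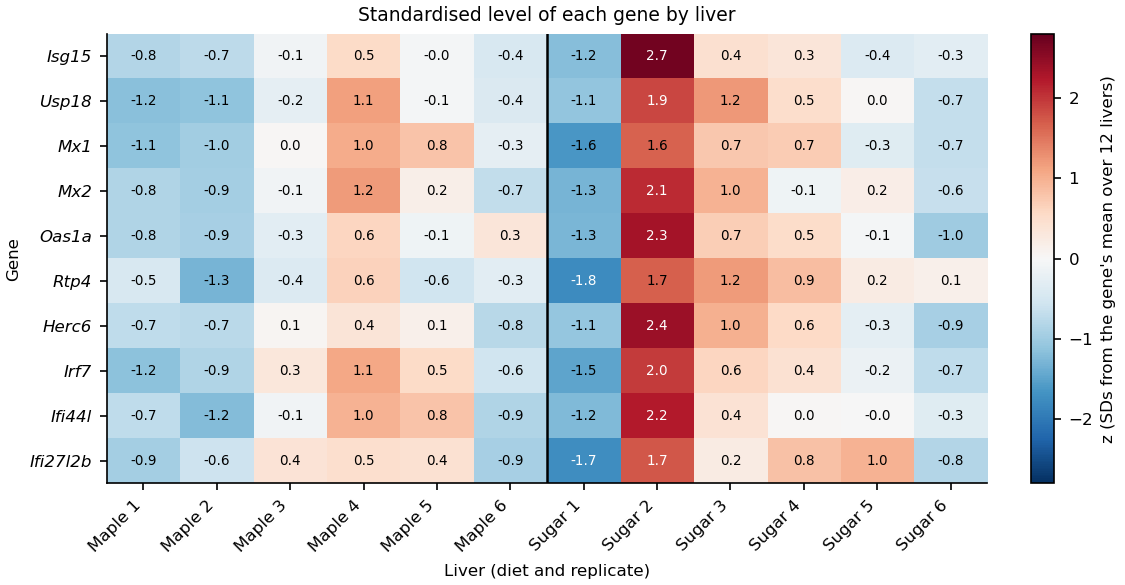
Standardised level (z, in SDs from the gene's mean over 12 livers) of the 10 genes in each liver, maple syrup livers left of the line and sugar mix livers right of it. The column of sugar mix replicate 2 is high in all 10 genes, and those of sugar mix replicate 1 and maple syrup replicates 1 and 2 are below the mean in all 10.

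The 10 genes moved together from liver to liver. Over the 12 livers the 45 pairs of genes had a median Pearson r of 0.90, from 0.77 for Rtp4 with Ifi27l2b to 0.98 for Mx1 with Irf7, and a median Spearman rho of 0.86. These correlations are a description, since the genes share the same arrays and were chosen with their values known. Of all 101054436 pairs of named genes on the array, 0.335% reached the lowest r among the 10, and the median over all pairs was 0.005. The first principal component held 89.8% of the standardised variance of the 10 genes. The gene closest to the mean of the other 9 was Irf7 (r = 0.97), and the least close were Rtp4 and Ifi27l2b (both r = 0.87).

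The correlation was also present within each diet and without the 2 outermost livers. After the mean of each diet had been subtracted, the median r was 0.90. Within the 6 maple syrup livers it was 0.86, from 0.42 to 0.98 over the pairs, and within the 6 sugar mix livers 0.94, from 0.79 to 0.99. Without sugar mix replicate 2 the median r of the pairs was 0.85, and without sugar mix replicates 1 and 2, the livers farthest from the median, it was 0.81 (rho = 0.77). The lowest pair then had r = 0.49.

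The mean z of the 10 genes put the livers in order. From the highest, the score was 2.06 in sugar mix replicate 2, 0.80 in maple syrup replicate 4, 0.75 in sugar mix replicate 3, 0.47 in sugar mix replicate 4, 0.21 in maple syrup replicate 5 and 0.02 in sugar mix replicate 5. The lower livers were maple syrup replicate 3 at -0.04, maple syrup replicate 6 at -0.49, sugar mix replicate 6 at -0.59, maple syrup replicate 1 at -0.87, maple syrup replicate 2 at -0.94 and sugar mix replicate 1 at -1.38. Sugar mix replicate 2 stood 1.26 above the next liver, and all 10 genes were higher there than in that liver. In sugar mix replicate 2 the SD over the 10 genes was 0.35. The genes move together, so neither this SD nor a count of genes measures the error of a liver's level. They were also chosen with 1 high liver known, so the step is a description. Lower in the order, some neighbours differed in most genes: sugar mix replicate 3 was above sugar mix replicate 4 in 9 of 10, maple syrup replicate 3 above maple syrup replicate 6 in 8, and sugar mix replicate 6 above maple syrup replicate 1 in 8. Others were mixed. Maple syrup replicate 4 exceeded sugar mix replicate 3 in 6 of 10 genes, maple syrup replicate 5 exceeded sugar mix replicate 5 in 5 of 10, and maple syrup replicate 6 exceeded sugar mix replicate 6 in 5 of 10. At the bottom, maple syrup replicate 2 was above sugar mix replicate 1 in 9 of 10 genes.

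Between the diets, the estimates of all 10 genes were below 0, that is, lower with maple syrup, with values that overlapped between the diets in every gene. Over all genes 52.9% were below 0, and since the genes move together, their 10 estimates are not independent. The median g of the 10 genes was -0.36, against -0.04 over all genes. The largest was that of Rtp4, with g = -0.76 (95% interval -1.84 to 0.35, 6 livers per diet), and the smallest that of Mx1, with g = -0.14 (95% interval -1.18 to 0.91). Every interval of the 10 genes included 0. Of the 36 pairs made of a liver of each diet, the maple syrup liver was higher in 8 for Rtp4, 10 for Usp18, 14 for Isg15 and 18 for Mx1.

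In limma over all 20826 probe sets, 0 of the 11 probe sets passed a Benjamini-Hochberg adjusted p of 0.05 (all had 0.9998), and 0 of them had an unadjusted p under 0.05. The share of probe sets called over the array was 0%; at an unadjusted p of 0.05 it was 4.19%, or 873 probe sets. Since the genes were chosen with this contrast known, nothing is read from these counts. The mean z of the 10 genes was -0.22 ± 0.68 in maple syrup livers and 0.22 ± 1.18 in sugar mix livers (SD, n = 6 each), with g = -0.42 (95% interval -1.47 to 0.65).

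Much of the low estimate rested on sugar mix replicate 2. Without it g was below 0 in 6 genes and above 0 in 4, which were Mx1 (0.15), Irf7 (0.17), Ifi44l (0.05) and Oas1a (0.03). The g of Isg15 was -0.08 in place of -0.49, and that of Rtp4 was -0.54 in place of -0.76. For the mean z, standardised again over 11 livers, g was -0.09 (95% interval -1.17 to 1.00). Without sugar mix replicate 1, the lowest liver, g of the mean z was -0.85, and without maple syrup replicate 2 it was -0.28.

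**Figure D3:**
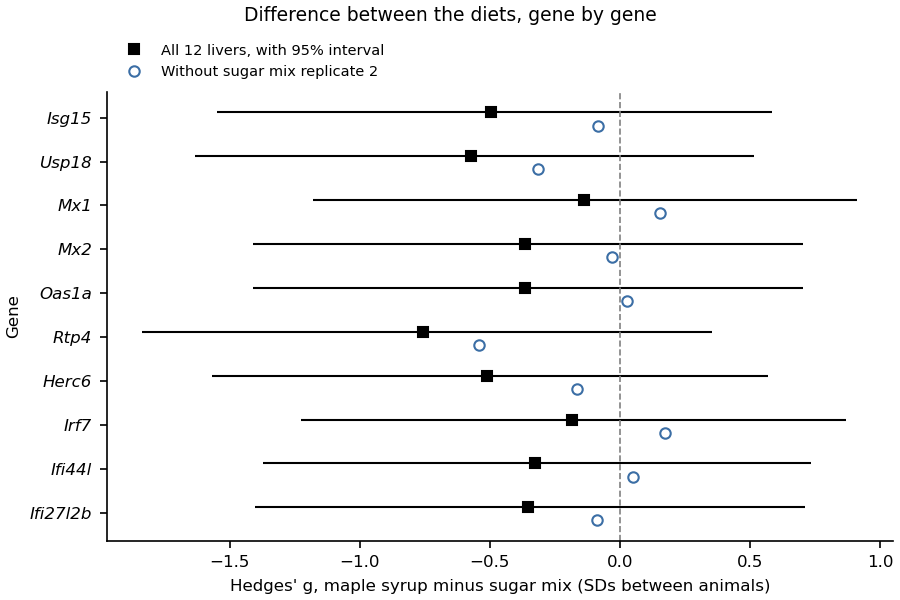
Hedges' g of each gene, maple syrup minus sugar mix; squares with lines are all 12 livers with 95% intervals, and open circles leave out sugar mix replicate 2. All squares lie below 0 with intervals that include 0, and 4 open circles lie above 0.

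The spread within a diet was wider with the sugar mix. In all 10 genes the SD of the 6 sugar mix livers was larger than that of the 6 maple syrup livers, by a ratio of 1.27 (Ifi44l) to 2.62 (Isg15) and a median of 1.66, where the median ratio over all genes was 0.99. Without sugar mix replicate 2 the ratio ran from 0.69 to 1.84, and it was above 1 in 8 of 10 genes. This difference was not tested, since the genes were chosen with these values in view.

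The other genes of the pathway were described in the order of its steps. Of the interferon genes themselves only Ifnb1, Ifnk and Ifng had a named probe set. Their mean scores were 6.78, 6.21 and 6.48 in either diet. These lay below the array medians, the lowest of which was 7.366, in a table whose lowest value was 5.57. Whether these 3 genes were expressed was not tested. Ifnb1, the type I interferon made early in a virus response, had g = 0.24 and a Spearman rho of 0.41 with the mean z of the 10 genes over the 12 livers. Ifnk had g = 1.40 (0.29 after quantile normalization) and rho = -0.33. Ifng, the type II interferon, had g = -0.80 and rho = -0.15, and its g was 0.84 after quantile normalization and 0.30 after median centring. The mean z of these 3 genes had r = 0.02 with that of the 10.

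The receptor and its kinases showed little of the pattern. Ifnar1 had rho = -0.14 and Ifnar2 0.13, the kinase Jak1 0.20 and Tyk2 -0.37. Stat2, which carries the signal to the nucleus, had rho = 0.53 and g = -0.48. Irf9, the DNA-binding partner of Stat2, had rho = 0.98 (r = 0.91) and r = 0.94 without sugar mix replicate 2. Its g was -0.36, and its rho was 0.31 after quantile normalization between arrays. Of the inhibitors, Socs1 had rho = 0.08 and g = 0.55, Socs3 0.42 and g = -1.53 (0.20 after median centring). The phosphatases Ptpn2 and Ptpn6 had rho of -0.47 and -0.59 and g of 0.58 and 0.72, which were -0.56 and -0.71 after quantile normalization. In this list of 10 measured genes, 1 had rho of at least 0.7, 6 had g above 0 and 4 below, and the median g was 0.18, or -0.34 after quantile normalization. No gene of the list passed limma in either direction.

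Among 12 measured sensors and adapters, 4 had rho of at least 0.7. These were the RNA helicases Dhx58 (0.96) and Ifih1 (0.71), the RNA-activated kinase Eif2ak2 (0.85) and Tlr7 (0.81), a receptor for single-stranded RNA in endosomes. Zbp1, a sensor of left-handed nucleic acid, had rho = 0.64. For other adapters and kinases of the list, rho was -0.06 for Mavs, -0.21 for Myd88, -0.29 for Ticam1, 0.12 for Sting1 and 0.18 for Tbk1. Irf3 had rho = 0.22 and Irf5 0.38. In the diet contrast 10 of 12 had g below 0 and 2 above, where 52.9% of all genes were below 0. The list was written with earlier results of these livers known, so nothing is read from this count. The median g of the list was -0.33, or 0.28 after median centring. The list's mean z had r = 0.77 with that of the 10 genes, against -0.06 after quantile normalization and 0.16 after median centring. Mavs had the lowest g of the list, -1.17 (-0.64 after quantile normalization and 0.23 after median centring), followed by Ticam1 with -1.12 (-2.36 after quantile normalization), and none passed limma.

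Many other type I interferon-induced genes moved with the 10. Their list was written with earlier results of these livers known, including a liver with a high interferon level. Its counts and correlations are therefore a description and no independent support. This list shares Stat2 and Irf9 with the receptor list, and Ifih1, Dhx58, Zbp1 and Eif2ak2 with the sensor list. Those genes are therefore counted again here. Of 49 measured, 25 had rho of at least 0.7, or 51.0%, against 0.648% of the 14207 genes outside the 10. In 33 of 49 the highest liver was sugar mix replicate 2, against 10.3% of all genes. The mean z of the list correlated with that of the 10 genes at r = 0.96 (rho = 0.94), and at r = 0.93 without sugar mix replicates 1 and 2. After quantile normalization r was 0.62, and after median centring 0.74. Parp9, Sp110, Ifi44, Cmpk2 and Oas1b were among them, with rho between 0.83 and 0.90. Not all classical members did so: Ifit1 had rho = -0.27, Bst2 0.02, Rsad2 0.24 and Trim25 -0.35. In the diet contrast 46 had g below 0 and 3 above, where 52.9% of all genes were below 0. Many of these genes move together, so their estimates are not independent. A low median of interferon genes with maple syrup was also known beforehand, so nothing is read from this count. The median g was -0.44, and 0 passed limma in either direction. The median was -0.19 without sugar mix replicate 2 and -0.26 after median centring. The lowest g were those of Tor3a and Cxcl11 (both -1.15), Isg20 (-0.99) and Dtx3l (-0.95). Tor3a, Cxcl11 and Isg20 had rho of 0.24, -0.20 and 0.18.

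**Figure D4:**
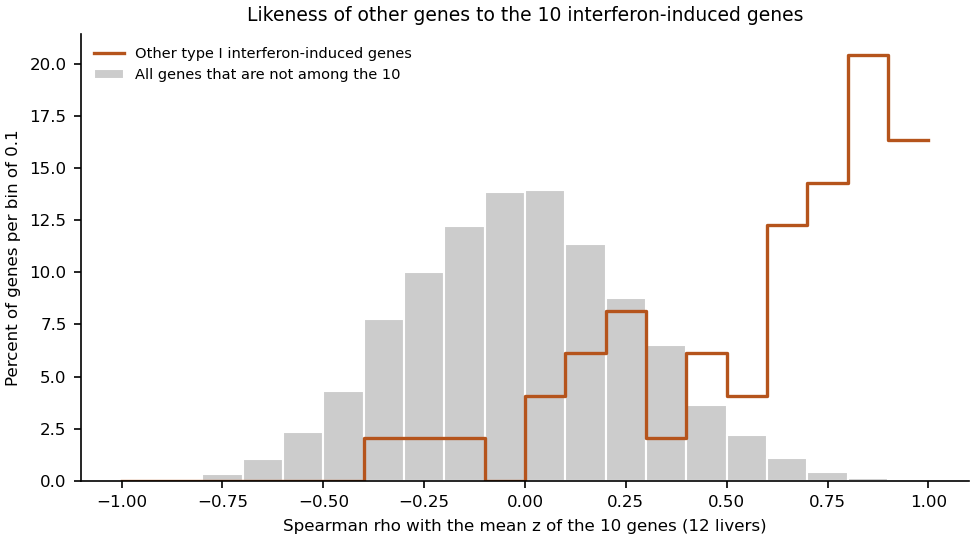
Percent of genes per bin of 0.1 in Spearman rho with the mean z of the 10 genes over 12 livers; grey bars are the 14207 genes outside the 10, and the line is the 49 other type I interferon-induced genes. The bars centre near 0, and 25 of the 49 lie at 0.7 or above.

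The 10 genes outside the list with the highest rho were Irf9 (0.98), RT1-S3 (0.97), Dhx58, Ly6e and Lgals3bp (0.96 each), Znfx1, Ifit3 and Slfn4 (0.94 each), and Ms4a6a and Ddx60 (0.93 each), all over 12 livers. RT1-S3 is a rat class I gene of the major histocompatibility complex, Ly6e a lipid-anchored surface protein, and Lgals3bp a secreted glycoprotein that binds galectins. After each diet mean was subtracted, r of these genes lay between 0.87 (Znfx1) and 0.96 (Dhx58). Without sugar mix replicates 1 and 2 it lay between 0.82 for Lgals3bp and 0.94 for Dhx58. In RT1-S3 alone of these 10, the highest liver was not sugar mix replicate 2. Of 92 genes outside the list with rho of at least 0.7, 30 (32.6%) belonged to the interferon lists written for this description, the 3 ligands left aside, and these 30 were 34.1% of the 88 measured genes of those lists. With rho of -0.7 or below there were 60 genes.

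Genes known chiefly from type II interferon, which signals through its own receptor, were also measured. Of 25 measured, 4 had rho of at least 0.7, namely Igtp (0.91), an immunity-related GTPase, and Psme2, Tapbp and Ciita. The mean z of the list had r = 0.72 and rho = 0.47 with that of the 10 genes, with r = 0.29 without sugar mix replicates 1 and 2 and 0.14 after quantile normalization. Sugar mix replicate 2 was its highest liver too, at 1.42. The immunoproteasome subunits Psmb8, Psmb9 and Psmb10 had rho of 0.53, 0.47 and 0.21 and g of -0.81, -0.95 and -0.90. Of the list, 23 had g below 0 and 2 above, where 52.9% of all genes were below 0. In 14 of the 25 the highest liver was sugar mix replicate 2, against 10.3% of all genes, so their estimates are not independent. This list too was written with earlier results of these livers known, so nothing is read from its counts. The median g was -0.65 (-0.13 after median centring), and 0 passed limma. Gbp4 (-1.16) and Tap2 (-1.12) had the lowest g, and that of Tap2 was 0.06 after quantile normalization and 0.08 after median centring. The g of Gbp4 was -0.63 after quantile normalization, -0.35 after median centring and -2.95 without maple syrup replicate 5. Promoters of this list held the core GAAANNGAAA in 15 of 26 genes with an entry, and those of the other type I list in 31 of 56. These counts include genes of the lists that were not measured here. Counted in the same way, by gene, the share was 3.21% of 11733 genes on the array with an entry.

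Markers of immune cells were set beside the 10 genes. None of the 11 Kupffer cell and macrophage markers, 16 T and NK cell markers, 7 B and plasma cell markers, 7 neutrophil markers or 4 markers of plasmacytoid dendritic cells had rho of at least 0.7. Of the 14207 genes outside the 10, 0.648% did. Lists this short would hold few or none at that share, so nothing is read from the count. The mean z of the Kupffer cell list ran from -1.37 to 0.73 in maple syrup livers and from -0.34 to 0.70 in sugar mix livers, and its r with the 10 genes was 0.02 (rho = 0.08), or -0.54 after quantile normalization. Maple syrup replicate 4, second highest in the 10 genes, held the -1.37. For T and NK cells the list ran from -0.63 to 0.41 in maple syrup livers and from -0.61 to 0.76 in sugar mix livers, with r = 0.24 (rho = 0.01) and -0.54 without sugar mix replicates 1 and 2. No marker is listed at 0 in this table, which gives every probe set a level.

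In sugar mix replicate 2 itself the marker lists ranked differently. It was the highest liver for the T and NK list, at 0.76, and second for the Kupffer cell list, at 0.70. Cd68, C1qa, C1qb, C1qc and Cd5l, 5 of 11 Kupffer cell markers, were at their highest there. Clec4f, Cd163, Adgre1, Csf1r, Mrc1 and Lyz2 were not. Of all genes, 10.3% had their highest value in this liver, which was known to be high when the lists were written. Nothing is read from these counts. Sugar mix replicate 2 was also second for B and plasma cells, at 0.60, and second for acute phase genes, at 0.72. Orm1, Hp and Hamp, 3 of 11 measured acute phase genes, were at their highest there. It was lowest of the 12 for erythroid markers, at -1.28, second lowest for plasmacytoid dendritic markers, at -0.64, and 6 from the lowest for neutrophil markers. The array's own RNA controls put it at the highest or second highest place in all 6 probe sets for beta-actin and GAPDH, while over the 12 livers these controls had r between -0.02 and 0.11 with the 10 genes. In the 3 hexokinase control sets it ranked 1, 4 and 5 from the lowest, and r with the 10 genes lay between -0.51 and -0.04. The part of these differences in the interferon level of this liver was not tested. The hepatocyte list had r = 0.13 with the 10 genes, with Ttr (rho = 0.80, r = 0.46) as its single member at rho of 0.7 or more. Endothelial markers had r = -0.47, cell cycle genes 0.36 and acute phase genes 0.24. The array median had r = 0.15 with the 10 genes (rho = 0.28).

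**Figure D5:**
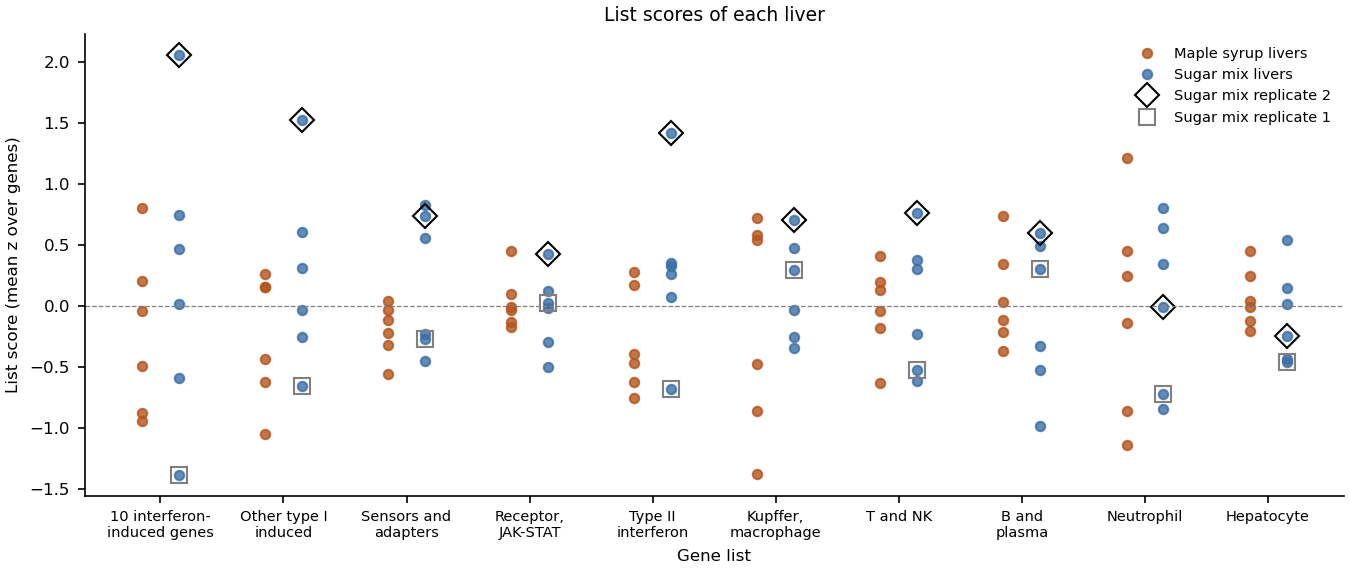
List scores (mean z over the genes of a list) of the 12 livers, maple syrup left and sugar mix right within each list; the diamond marks sugar mix replicate 2 and the square sugar mix replicate 1. Sugar mix replicate 2 is the highest liver for the 10 genes (2.06), the other type I genes (1.53), the type II genes (1.42) and the T and NK markers (0.76).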

How the data were processed

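Liver RNA (2 ug, biotin-labelled cRNA, per the labels' protocols) of 12 rats was read on Affymetrix arrays. The authors' deposited table gives a score for each of 31099 probe sets, with 0 missing values; the labels do not state how the authors summarized and normalized them. The 57 control probe sets were left out; 20826 of the rest had 1 gene symbol in the platform annotation, whose symbols were checked against RefSeq by gene ID, 436 had more than 1 and 9780 stayed without a name in this work. The diet contrast was fitted in R 4.3.3 with limma 3.58.1 (eBayes with trend, two-sided, Benjamini-Hochberg over all 20826), which was also tested on simulated data. Scores, g with 95% intervals from the noncentral t distribution, and correlations were computed in Python 3.11.15 with the brightest probe set of each of 14217 genes; figures used matplotlib 3.10.9. The labels call the arrays biological replicates and give no batch, and the number of arrays limits the precision. Same-numbered livers of the 2 diets deviated together in 1 of 6 numbers (r over 0.1), so the numbers were not taken as pairs. Named genes were the 10 members, the 10 genes with the highest rho with their mean z, the measured ligands, receptors, JAK-STAT and sensor genes, and up to 4 genes of each other list by the size of g; genes named beyond that were chosen after their values were seen. The members and all lists were chosen with earlier results of these data known. Alternatives were other normalizations, probe set rules, variance models, a filter on the lowest 30%, weighting of arrays, a block for the replicate number, and each array left out.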

Additional observations from a re-analysis of the deposited data

Results flagged for a closer look

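Each gene and list score was searched, in each diet, for a single liver set apart from the remaining 5, in 74 groups; 3.7 such livers are expected by chance. Only the score of erythroid and blood markers met this, with maple syrup replicate 3 at 2.21 standard deviations above the mean of the 12 livers and the next maple syrup liver at 0.54. None of the 10 interferon-induced genes and not their mean z met it.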

How the results depend on the processing

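The count of probe sets called between the diets was 0 under every alternative run in limma, with 222 (median centring) to 1264 (all probe sets that are not controls) at an unadjusted p of 0.05, against 873. Of the 873, 434 were higher and 439 lower with maple syrup; the split was 305 and 686 after quantile normalization and 189 and 33 after median centring. Without single livers the count was 651 (sugar mix replicate 2) to 1148 (sugar mix replicate 6). With the replicate number as a block it was also 0 (912 at an unadjusted p of 0.05), and for the mean z of the 10 genes the block gave a mean difference of -0.443 with an SE of 0.544 over 6 numbers, or -0.33 of the SD of the paired differences. The block changed no call. The g of the mean z, -0.42, lay between -0.45 and -0.38 under other scalings and scores, and between -0.85 and -0.09 with single livers left out. The median r between the 10 genes, 0.90, lay between 0.85 and 0.91 with single livers left out. Of the 10 genes, Mx1, Oas1a, Irf7 and Ifi44l changed sign of g with at least 1 liver left out, and no gene did under the normalizations. Some genes and lists outside the 10 depended on the scaling. The array medians, 7.36619 to 7.36632, lay farther apart than 7.13e-06, the SD of the median probe set. Median centring therefore moves most genes by more than their own spread. A change of sign there cannot show whether the gene itself differed. Under quantile normalization, rho of Irf9 was 0.31 and of Znfx1 0.36, and r of the other type I list was 0.62. There, r of the sensor list was -0.06 and of the type II list 0.14; under median centring the sensor list had 0.16. Quantile normalization gave no g for Jak1, Irf3 and Cp. A g was counted as moved only if it shifted by at least 1 SD between animals. An r or rho with the mean z was counted if it left its 95% interval for 12 livers. By this wide rule 25 of 1604 alternatives over 103 results moved, none of them a main value. The change of g of the mean z from -0.42 to -0.09 and the sign changes of Mx1, Oas1a, Irf7 and Ifi44l were not counted.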
